A study of Homo sapiens with 9 samples.

Results

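Keratins are the intermediate filament proteins of epithelial cells, and 6 keratin genes, KRT7, KRT8, KRT18, KRT19, KRT34 and KRT80, were followed here in cultured human fibroblasts. They were chosen by symbol in the deposited table of differential expression and matched by gene identifier to the per-library count tables. Each symbol had 1 identifier, so 6 of 64253 identifiers were used. The choice was made with results of these libraries known, so the values of the 6 genes are given as a description, with no p-value. Where calls of these genes over all genes tested are counted, they stand beside the share of all genes called and nothing is read from them. Tests are given for genes outside the 6. KRT7, KRT8, KRT18 and KRT19 are simple-epithelial keratins. KRT34 is a hair keratin and KRT80 is a keratin of differentiating epithelia, so the set is not made of simple keratins alone.

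The cells were IMR90, a line of human lung fibroblasts, grown in 2% oxygen and used at population doubling 30. All cells carried pLKO.1 vectors, which deliver hairpins from a lentivirus, were infected again 24 hours after the first infection and were kept in puromycin at 3 ug/mL for 7 days. The 3 control libraries came from cells with pLKO.1 vector alone, which one label calls empty and the treatment protocol calls pLKO.1 GFP. The 3 shRRM2 libraries came from cells with the hairpin TRCN0000049410, which targets RRM2 (part of the ribonucleotide reductase that supplies building blocks of DNA), and are labelled as senescent. The 3 shRRM2/shp16 libraries came from cells with the RRM2 hairpin and the hairpin TRCN0000010482 against p16, a product of CDKN2A, and are labelled as having bypassed senescence. No group had the p16 hairpin alone, so what the p16 hairpin does without the RRM2 hairpin was not measured. One hairpin was used for each target. The labels do not say whether the 3 libraries of a group came from separate cultures, so p-values measure the spread between these libraries, which may be technical.

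A keratin filament is built from obligate pairs of a type I (acidic) and a type II (basic) chain. KRT8 with KRT18 is the first pair to appear in simple epithelia, and KRT7 (type II) and KRT19 (type I) join it in ductal, glandular and mesothelial linings. Fibroblasts build their filaments mainly from vimentin, and keratin transcripts in cultured fibroblasts are known at low levels. Type II genes lie in a cluster on chromosome 12 and type I genes in a cluster on chromosome 17. KRT18 is the exception: it is a type I gene that lies beside KRT8 on chromosome 12.

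Total gene counts ran from 15770895 to 24873291 per library. Reads aligned in more than 1 place, 40.3% to 44.9% of all, were not counted. RRM2, the targeted gene, was at 485 ± 5.23 CPM (counts in each 1000000 of normalised library size; mean ± SD, n = 3 here and below) in control, 62.1 ± 1.86 in shRRM2 and 177 ± 3.00 in shRRM2/shp16 libraries. CDKN2A, whose transcripts include p16, was at 6.02 ± 0.11, 6.50 ± 0.46 and 4.28 ± 0.32 CPM. RRM2 was thus higher in the libraries with both hairpins than in those with the RRM2 hairpin alone. In bulk RNA, fewer cells with a transcript and less of it per cell cannot be told apart.

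On the GRCh38 build, KRT7 (ENSG00000135480) lies at chr12:52232520-52252186 on the plus strand and KRT80 (ENSG00000167767) at chr12:52168996-52192000 on the minus strand. KRT8 (ENSG00000170421) lies at chr12:52897187-52949954 on the minus strand, and KRT18 (ENSG00000111057) at chr12:52948871-52952901 on the plus strand. Those genes run head to head, with 1084 bases of overlap in GENCODE release 29. The library kit keeps strand, but whether the counting used it is not given in the sources used here, so reads in the overlap could be left out as ambiguous. KRT19 (ENSG00000171345) lies at chr17:41523617-41528308 and KRT34 (ENSG00000131737) at chr17:41377650-41382403, both on the minus strand. All 6 are annotated as protein coding.

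KRT8 and KRT18 each have many processed copies in the genome, which sets how well short reads can be assigned to them. Of the 50-base windows in the coding sequence of KRT8, 38.4% also occurred in transcripts of other genes, and for KRT18 the share was 38.7%. The shares were 15.4% for KRT34, 2.00% for KRT19, 1.24% for KRT7 and 1.20% for KRT80. The KRT18 window below, coding bases 937 to 986 of a GENCODE transcript, is shown because it also occurs in 10 other genes.
KRT18 window: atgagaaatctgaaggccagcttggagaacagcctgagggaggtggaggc

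Of the 6 genes, 2 had an entry in the RefSeq table of promoters (GRCh38.p14), KRT8 and KRT34. The 250 bases before each listed start are shown to set a keratin read in every library beside a hair keratin at the detection limit. The KRT8 window is chr12:52926470-52926719 and lies inside the KRT8 gene as GENCODE draws it, not at its outer end. Whether the KRT8 reads come from this start was not tested. The KRT34 window is chr17:41382307-41382556. Both are on the minus strand, and capitals mark matches to TATAAA and to CANNTG (the E-box), searched on both strands.
KRT8 upstream: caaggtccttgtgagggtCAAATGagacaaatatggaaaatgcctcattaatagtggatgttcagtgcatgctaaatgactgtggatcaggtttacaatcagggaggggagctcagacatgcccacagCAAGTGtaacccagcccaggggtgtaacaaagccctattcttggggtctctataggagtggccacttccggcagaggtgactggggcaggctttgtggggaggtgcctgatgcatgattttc
KRT34 upstream: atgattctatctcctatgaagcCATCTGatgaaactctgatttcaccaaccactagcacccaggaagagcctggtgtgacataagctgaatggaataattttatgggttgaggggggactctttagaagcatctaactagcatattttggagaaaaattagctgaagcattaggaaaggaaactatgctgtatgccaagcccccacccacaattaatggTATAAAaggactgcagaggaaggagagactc

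The KRT34 window held TATAAA from position -31 and 1 E-box. The KRT8 window held 2 E-boxes and no TATAAA. Neither held TGANTCA (the AP-1 site) or GGGCGG (the GC box). Of 35116 promoter windows of the same length, 10.7% held TATAAA, 61.8% CANNTG, 6.57% TGANTCA and 42.6% GGGCGG.

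KRT18, the type I partner of KRT8, was the most abundant of the 6. It was read at 110, 105 and 107 CPM in control libraries a, b and c. The shRRM2 libraries had 128, 135 and 131 CPM, and the shRRM2/shp16 libraries 38.4, 39.0 and 40.2 CPM. The 3 groups did not overlap, with shRRM2 highest and shRRM2/shp16 lowest. The fitted log2 fold change was 0.29 ± 0.04 (SE, here and below) for shRRM2 against control, -1.75 ± 0.04 for shRRM2/shp16 against shRRM2 and -1.46 ± 0.04 for shRRM2/shp16 against control. The shRRM2/shp16 level was thus 29.8% of the shRRM2 level and 36.4% of the control level.

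KRT8, its type II partner, was read at 24.6, 25.6 and 24.3 CPM in control libraries. It stood at 32.7, 29.5 and 34.4 CPM with the RRM2 hairpin and at 13.2, 13.6 and 13.0 CPM with both hairpins. The order of the groups was that of KRT18, again with no overlap, over a narrower span. The log2 fold changes were 0.37 ± 0.06, -1.28 ± 0.07 and -0.91 ± 0.07 in the same order of comparisons.

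Pseudogene reads bore on KRT8 more than on KRT18. The 50 genes annotated as KRT8 pseudogenes had 140 to 234 counts in sum per library, which was 22.4% to 28.5% of the summed KRT8 and pseudogene counts in control and shRRM2 libraries and 40.0% to 43.9% in shRRM2/shp16 libraries. Adding them changed the log2 ratio of group mean CPM from -1.28 to -0.91 for shRRM2/shp16 against shRRM2, and from -0.91 to -0.58 against control. For the 72 KRT18 pseudogenes, with 65 to 93 counts in sum, the same ratios went from -1.75 to -1.65 and from -1.46 to -1.35. The directions were kept in both genes. How many of these reads come from KRT8 or KRT18 themselves was not tested.

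KRT7, the type II keratin of ducts and mesothelium, was read at 39.7, 35.0 and 36.0 CPM in control libraries. The shRRM2 libraries had 52.7, 58.2 and 54.2 CPM and the shRRM2/shp16 libraries 11.1, 9.66 and 10.4 CPM. Every shRRM2 library was above every control library, and every shRRM2/shp16 library was below both. The log2 fold changes were 0.57 ± 0.05, -2.41 ± 0.07 and -1.84 ± 0.07. KRT86, a hair keratin gene that overlaps KRT7 on the same strand, had 1 to 7 counts per library.

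KRT19, the smallest keratin, which lacks most of the tail domain, had the widest span. It was read at 43.1, 40.9 and 40.8 CPM in control libraries and at 62.6, 61.0 and 61.5 CPM in shRRM2 libraries. In shRRM2/shp16 libraries it was at 3.27, 2.54 and 3.39 CPM, from 62, 51 and 63 counts. The log2 fold changes were 0.56 ± 0.05, -4.33 ± 0.08 and -3.77 ± 0.09, so the shRRM2/shp16 level was 4.97% of the shRRM2 level and 7.37% of the control level. Among 16561 genes tested, its fold change was the 7th from the lowest for shRRM2/shp16 against shRRM2 and the 5th from the lowest against control.

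KRT80 went another way. It was read at 8.05, 8.44 and 8.76 CPM in control libraries, 5.27, 6.46 and 5.62 CPM in shRRM2 libraries and 3.91, 4.18 and 4.73 CPM in shRRM2/shp16 libraries. Here the control libraries were highest, and each added hairpin went with a lower level. The log2 fold changes were -0.53 ± 0.12, -0.44 ± 0.13 and -0.97 ± 0.12. The lincRNA gene LINC00592, which spans KRT80 on the other strand, had 0 to 4 counts per library.

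KRT34 was at the detection limit, with 2, 1 and 2 counts in control libraries, 2, 0 and 1 in shRRM2 libraries and 0 in each shRRM2/shp16 library. A count of 0 allows up to 3 counts, here 0.155 to 0.167 CPM in the shRRM2/shp16 libraries (counting error only). No fold change is given, since each group was at or under that limit. KRT34 did not pass the filter on low counts, so 5 of the 6 genes were fitted.

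**Figure D1:**
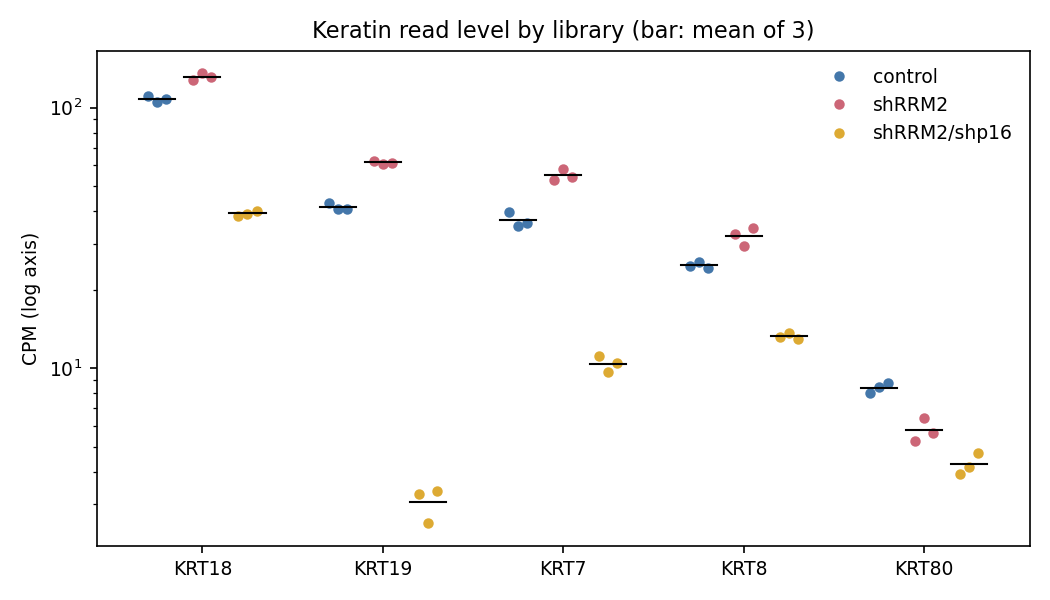
CPM (log axis) of the 5 fitted keratin genes in each of 9 libraries, as points coloured by group, with a bar at the mean of 3. For KRT18, KRT19, KRT7 and KRT8 the shRRM2 libraries are highest and the shRRM2/shp16 libraries lowest, with KRT19 at 2.54 to 3.39 CPM there, while for KRT80 the control libraries are highest.

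Read over the 5 fitted genes, 4 were higher and 1 was lower in shRRM2 than in control at an adjusted p under 0.05, in a comparison where 29.0% of all genes tested were called higher and 31.8% lower. All 5 were lower in shRRM2/shp16 than in shRRM2, where 29.1% of genes were called lower, and all 5 were lower than in control, where 32.4% were. Groups did not overlap for any of the 5 fitted genes in the 3 comparisons, nor for 63.6%, 64.7% and 66.2% of all genes tested. Shares of genes called in either direction were 60.9%, 61.1% and 62.4%, and shares called higher in the 2 comparisons with shRRM2/shp16 were 31.9% against shRRM2 and 30.0% against control. The split against control turned with limma on the deposited RPKM values, which called 5079 genes higher and 3488 lower, where edgeR called 4971 and 5368. The median log2 fold changes of the 5 were 0.37, -1.75 and -1.46, and those of all genes 0.002, 0.01 and 0.01. The genes were chosen with these contrasts in view, so nothing is read from the counts. The 3 comparisons share libraries, so their values stand side by side and are not independent.

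The authors' deposited table also gives a comparison of shRRM2/shp16 with shRRM2, in other units. In the authors' deposited table KRT19 was at 43.4 in shRRM2 and 2.35 in shRRM2/shp16 (log2 fold change -4.21), KRT7 was at 69.2 and 14.7 (-2.23) and KRT18 at 94.7 and 28.9 (-1.71). For KRT8 the authors' deposited table has 24.5 and 16.2 (log2 fold change -0.60, q-value 0.153), a smaller change than the -1.28 from the counts. For KRT80 the authors' deposited table has 1.37 and 1.03 (log2 fold change -0.42).

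A further deposited column bears on the difference between shRRM2 and control. The per-library log2 RPKM column of shRRM2 replicate c did not match that library's count file: 5.23% of genes gave the gene length found from the other 8 columns within 1%, against 100% in each other column. Converted to RPKM (reads per kilobase of gene length, scaled to library size), KRT18 stood at 39.7 and 41.8 in shRRM2 columns a and b, at 25.6 in column c and at 31.7 to 32.9 in control. KRT19 stood at 26.8 and 25.9 in columns a and b, at 12.5 in column c and at 16.8 to 17.7 in control. KRT7 was at 12.9, 14.1 and 8.26 against 8.31 to 9.30 in control, and KRT8 at 6.52, 5.84 and 4.54 against 4.68 to 4.96. In that column all 4 genes were thus below the control range. The shRRM2/shp16 columns were lower still, at 12.3 to 13.0 for KRT18 and 1.13 to 1.50 for KRT19. A limma fit of these columns at a pseudocount of 0.1 called none of the 4 genes in shRRM2 against control and all 4 lower in shRRM2/shp16 against shRRM2. With that column left out, an alternative chosen after seeing the data, the same fit called all 4 higher in shRRM2 than in control, with log2 fold changes of 0.63 for KRT7, 0.36 for KRT8, 0.34 for KRT18 and 0.61 for KRT19. The count files were used throughout, and which of the 2 deposits describes shRRM2 replicate c cannot be told from them.

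**Figure D2:**
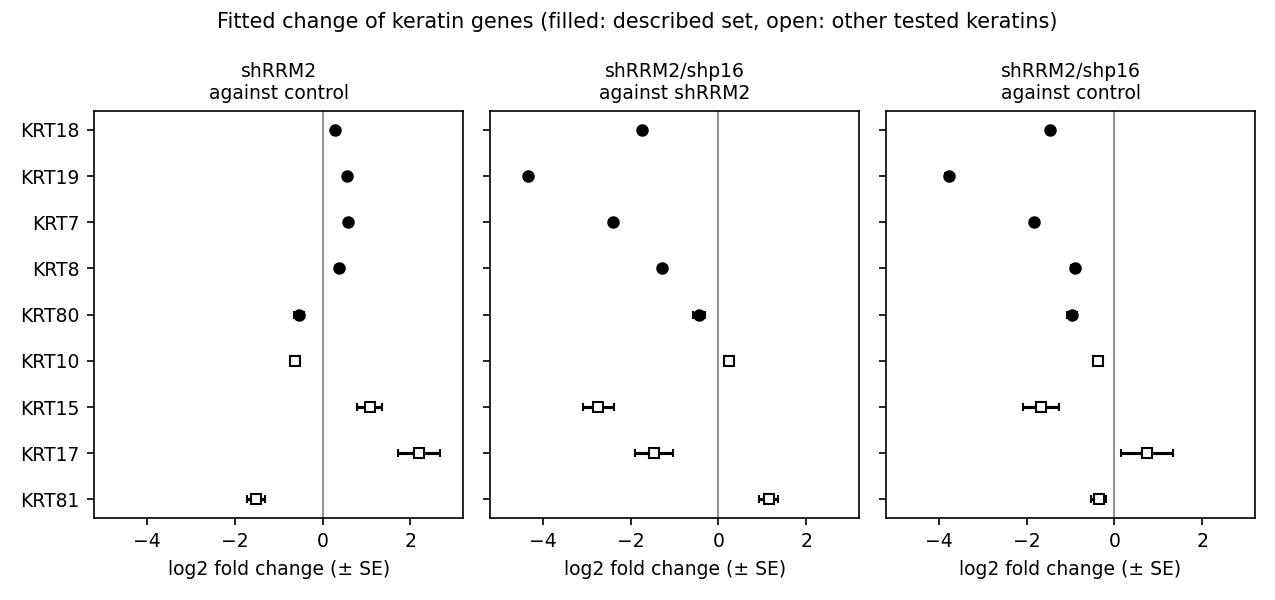
Fitted log2 fold change with its standard error for the 5 keratin genes (filled) and the 4 other keratin genes that could be tested (open), in each comparison. KRT19 reaches -4.33 for shRRM2/shp16 against shRRM2, while KRT10 and KRT81 lie above 0 there and KRT15 and KRT17 lie below it.

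Divided by gene length, which allows levels to be compared between genes, the order in control was KRT18 at 33.4 ± 0.80 CPM per kilobase, KRT19 at 17.8 ± 0.57, KRT7 at 9.02 ± 0.60, KRT8 at 4.96 ± 0.14 and KRT80 at 1.93 ± 0.08. The shRRM2 order was the same, at 40.9 ± 1.15, 26.4 ± 0.35, 13.5 ± 0.69, 6.42 ± 0.50 and 1.33 ± 0.14. No neighbours in those orders overlapped between libraries. In shRRM2/shp16 KRT18 still led at 12.2 ± 0.28, followed by KRT8 at 2.64 ± 0.07, KRT7 at 2.54 ± 0.18, KRT19 at 1.31 ± 0.20 and KRT80 at 0.98 ± 0.10. There KRT8 overlapped KRT7, and KRT19 overlapped KRT80. KRT19 thus stood lower in this order than in the other groups.

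The summed level of the 6 genes was 67.2 ± 1.79 CPM per kilobase in control, 88.5 ± 1.24 in shRRM2 and 19.7 ± 0.46 in shRRM2/shp16. KRT18 made up 49.8%, 46.2% and 62.0% of the sum in the 3 groups, KRT19 26.5%, 29.8% and 6.67%, KRT7 13.4%, 15.2% and 12.9%, KRT8 7.38%, 7.26% and 13.4% and KRT80 2.88%, 1.50% and 4.99%. KRT19 was therefore the gene whose share shrank most, and the shares of KRT18 and KRT8 were larger in the libraries with both hairpins.

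Among the chosen keratin genes alone, type II RNA was the smaller side of the type I and type II pair in every library. The type II level per unit of type I level was 0.310 ± 0.002 in control, 0.315 ± 0.005 in shRRM2 and 0.457 ± 0.011 in shRRM2/shp16. Other keratin genes were left out of both sums, among them KRT10, a type I keratin at 13.6 CPM per kilobase in control. The chosen type I genes summed to 51.3, 67.3 and 13.5 CPM per kilobase in control, shRRM2 and shRRM2/shp16. KRT10 was at 28.9, 18.7 and 22.1 CPM in those groups, values not divided by length and so not on the scale of these sums. From shRRM2 to shRRM2/shp16 it did not fall as the chosen type I genes did. The higher ratio in shRRM2/shp16 was thus shown for the chosen genes only. The ratio with KRT10 added was not computed and may not be highest there. KRT8 per unit of KRT18 was 0.148 ± 0.007, 0.157 ± 0.015 and 0.217 ± 0.009, and KRT19 per unit of KRT18 was 0.532 ± 0.008, 0.647 ± 0.027 and 0.108 ± 0.016. The ratio within the KRT8 and KRT18 pair thus moved far less than the ratio of KRT19 to KRT18. Ratios that hold KRT8 depend on its length, 5011 bases from the deposited values and 6881 in GENCODE release 29. They also carry the KRT8 pseudogene share given above.

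**Figure D3:**
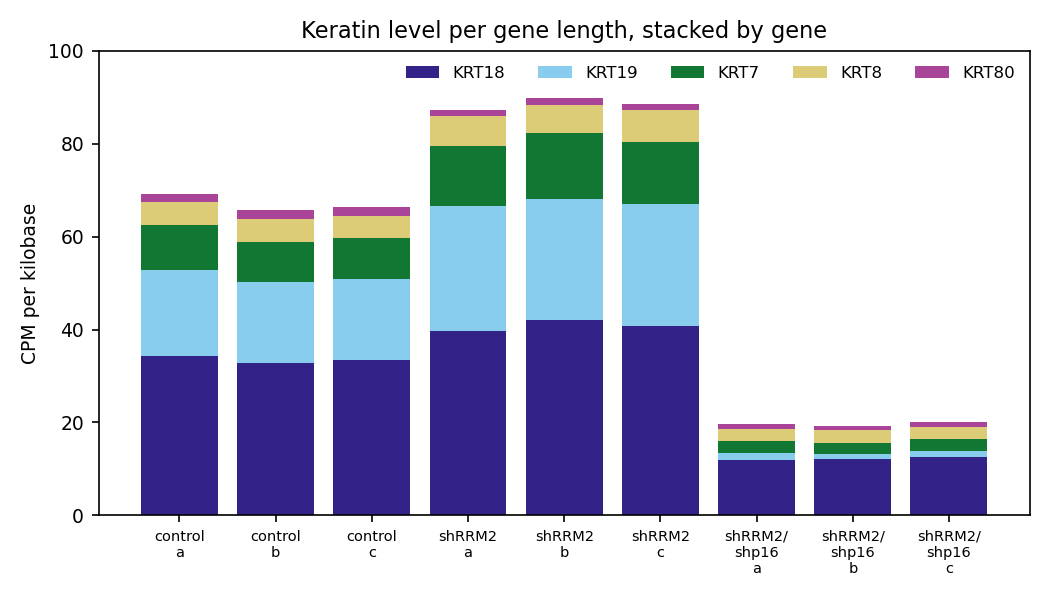
Level per gene length (CPM per kilobase) of the keratin genes, stacked for each of 9 libraries, KRT34 left out. The sum is 65.9 to 69.2 in control, 87.3 to 89.8 in shRRM2 and 19.3 to 20.2 in shRRM2/shp16, where the KRT19 band nearly vanishes.

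VIM, which encodes vimentin, the main filament protein of fibroblasts, was lower in each step, as KRT80 was. Its level fell from 5334 CPM in control to 3525 in shRRM2 and 2136 in shRRM2/shp16, log2 fold changes of -0.60 ± 0.03 and -0.72 ± 0.03 (adjusted p 1.5e-23 and 1.1e-26, edgeR quasi-likelihood test). Per length, the 6 keratins together came to 6.26% ± 0.07 of VIM in control, 12.5% ± 0.46 in shRRM2 and 4.57% ± 0.21 in shRRM2/shp16. The higher keratin share in shRRM2 libraries thus held both more keratin RNA and less vimentin RNA.

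Most other keratin genes were nearly silent, but KRT10 was at 28.9 CPM in control, above KRT8 at 24.8. Of 49 listed, 18 had any count, 43 had at most 3 counts in every library and 4 passed the filter, KRT10, KRT15, KRT17 and KRT81. KRT5 and KRT1, keratins of stratified epidermis, had no count, and KRT14 had at most 2. Among the 4 tested, edgeR called 2 higher and 2 lower in shRRM2 than in control, 2 higher and 2 lower in shRRM2/shp16 than in shRRM2, and 2 lower than control in shRRM2/shp16. Shares of all genes called in these comparisons were 60.9%, 61.1% and 62.4%.

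KRT15, a type I keratin of basal cells whose start is 5.779 kb from that of KRT19, had the pattern of KRT19 at lower counts. It had 11 to 26 counts in control, 28 to 48 in shRRM2 and 3 to 10 in shRRM2/shp16 libraries, and its log2 fold changes were 1.08 ± 0.28, -2.74 ± 0.36 and -1.67 ± 0.41 (adjusted p 0.00094, 8.1e-09 and 0.00045, edgeR). KRT17, a type I keratin induced in stressed epithelium, had 1 to 5, 10 to 16 and 4 to 6 counts. It rose by 2.21 ± 0.48 in shRRM2 and fell by 1.47 ± 0.43 on the log2 scale from shRRM2 to shRRM2/shp16 (adjusted p 0.00012 and 0.0032, edgeR). These counts are low. Limma on the RPKM values did not call KRT15 in shRRM2 against control or in shRRM2/shp16 against control, whether as deposited (adjusted p 0.173 and 0.319), with a pseudocount of 0.1 (0.203 and 0.138) or also without the mismatching column (0.150 and 0.135). It did not call KRT17 in shRRM2/shp16 against shRRM2 with a pseudocount of 0.1 (adjusted p 0.0575) or also without that column (0.098).

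KRT10 and KRT81 ran the other way. KRT10, the type I keratin of suprabasal epidermis, was at 28.9 ± 1.81 CPM in control, 18.7 ± 1.23 in shRRM2 and 22.1 ± 3.23 in shRRM2/shp16. Its fall of 0.62 ± 0.08 on the log2 scale in shRRM2 had an adjusted p of 4.2e-09 (edgeR). The rise of 0.24 ± 0.08 from there to shRRM2/shp16, with an adjusted p of 0.01 in edgeR, was lost without shRRM2 replicate b (0.19), without shRRM2/shp16 replicate b (0.19) or without shRRM2/shp16 replicate c (0.18). KRT81, a hair keratin with close paralogs, fell by 1.51 ± 0.21 in shRRM2 and rose by 1.14 ± 0.22 from shRRM2 to shRRM2/shp16 (adjusted p 2.6e-08 and 1.2e-05, edgeR). Its counts are uncertain, since reads shared with paralogs were not counted.

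Among 12 genes of other cytoplasmic filaments, 9 were tested. In shRRM2 against control 2 rose and 4 fell, with the median fold change at -0.12 on the log2 scale. From shRRM2 to shRRM2/shp16 2 rose and 6 fell (median -0.99), and from control to shRRM2/shp16 2 rose and 7 fell (median -0.97). Medians over all genes were 0.002, 0.01 and 0.01, and the shares of all genes called were 60.9%, 61.1% and 62.4%.

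NES, which encodes nestin, and INA, which encodes alpha-internexin, had the direction of KRT8 and KRT18 in each comparison. NES rose by 0.22 ± 0.03 in shRRM2 and fell by 1.29 ± 0.03 on the log2 scale from shRRM2 to shRRM2/shp16, and INA rose by 0.36 ± 0.06 and fell by 1.13 ± 0.07 (edgeR adjusted p 4.5e-08 and 2.2e-32, then 2.5e-06 and 8.0e-19). Limma on the RPKM values with every column did not call the NES rise (adjusted p 0.168 as deposited, 0.188 with a pseudocount of 0.1). DES, which encodes the muscle filament protein desmin, fell in both steps, with log2 fold changes of -0.79 ± 0.13 and -2.60 ± 0.21. The vimentin partner SYNM (synemin) and the lens filament gene BFSP1 were among the exceptions, with rises of 0.57 ± 0.06 and 1.29 ± 0.17 from shRRM2 to shRRM2/shp16.

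Of 23 genes for cytolinkers, which tie filaments to other structures, and for desmosomes, the junctions that anchor keratin, 16 were tested. In shRRM2 against control 6 rose and 5 fell (median log2 fold change 0.05), from shRRM2 to shRRM2/shp16 2 rose and 10 fell (median -0.63), and from control to shRRM2/shp16 3 rose and 8 fell (median -0.60). Over all genes tested, the shares called higher and lower were 29.0% and 31.8%, 31.9% and 29.1%, and 30.0% and 32.4%. The desmosomal plaque protein that binds keratin, desmoplakin (DSP), was named after its values were seen. It was at 132 CPM in control, 191 in shRRM2 and 87.5 in shRRM2/shp16. Its log2 fold changes were 0.53 ± 0.03, -1.13 ± 0.04 and -0.60 ± 0.04 (adjusted p 3.2e-17, 1.7e-28 and 2.4e-18, edgeR). EPPK1 (epiplakin), a cytolinker that binds simple keratins, rose by 1.05 ± 0.13 and then fell by 2.28 ± 0.16 on the log2 scale. DSG2, a desmosomal cadherin, rose by 0.42 ± 0.06 and then fell by 1.59 ± 0.07.

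Other anchoring genes moved in several ways. TCHP, also on the list, fell by 0.60 ± 0.07 on the log2 scale in shRRM2 (adjusted p 1.3e-10, edgeR). It did not pass the test from shRRM2 to shRRM2/shp16 (-0.02 ± 0.07). JUP (plakoglobin) did not pass the test in shRRM2 and rose by 1.02 ± 0.04 from there to shRRM2/shp16. PPL (periplakin) fell by 1.09 ± 0.17 and then rose by 1.77 ± 0.15. The desmosomal cadherins DSC3 and DSC2 rose by 1.16 ± 0.19 and 0.93 ± 0.30 in shRRM2, from 1.81 and 0.715 CPM in control. Like DSP they then fell, by 1.51 ± 0.20 and 0.69 ± 0.29 (adjusted p 7.1e-09 and 0.037, edgeR). The plakophilin PKP1 did not pass the test in shRRM2 (0.43 ± 0.30). It fell by 2.09 ± 0.38 from shRRM2 to shRRM2/shp16, from 1.13 to 0.262 CPM. ITGA6, the alpha chain of the hemidesmosomal integrin, fell in both steps, with log2 fold changes of -0.37 ± 0.03 and -1.54 ± 0.04. ITGB4, its partner, fell by 1.14 ± 0.43 in shRRM2 (adjusted p 0.021, edgeR) from a control mean of 0.749 CPM, and this call was lost without control replicate a (-0.45), without shRRM2 replicate b (-0.90) or with DESeq2 (-1.09, adjusted p 0.0944).

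All 19 genes listed as regulators of keratin genes were tested. In shRRM2 against control 2 rose and 12 fell, from shRRM2 to shRRM2/shp16 9 rose and 6 fell, and from control to shRRM2/shp16 7 rose and 9 fell, a balance that turned to 9 and 7 with limma on the deposited RPKM values. The shares of all genes called higher and lower by edgeR were 29.0% and 31.8%, 31.9% and 29.1%, and 30.0% and 32.4%. FOSL1, an AP-1 subunit, fell in both steps, with log2 fold changes of -0.88 ± 0.03 and -1.05 ± 0.04, while FOS, another AP-1 subunit, fell by 1.08 ± 0.13 and then rose by 1.68 ± 0.12. FOSB fell by 1.53 ± 0.13 and then rose by 1.16 ± 0.14, and JUNB rose in both steps, by 0.20 ± 0.06 and 0.52 ± 0.05. JUN fell by 1.13 ± 0.04 on the log2 scale from control to shRRM2/shp16. KLF5, a zinc finger factor of epithelia, did not pass the test in shRRM2 (0.10 ± 0.07) and fell by 1.25 ± 0.08 from shRRM2 to shRRM2/shp16. ETS2 rose by 0.94 ± 0.03 in that step and ETS1 fell by 0.65 ± 0.04. ZEB1, a repressor of epithelial genes, rose by 0.27 ± 0.03 in shRRM2, while ZEB2 fell by 0.54 ± 0.04 and then rose by 0.99 ± 0.04. No direction was shared by the whole list, and none of these values was tested for a link to the keratin genes.

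**Figure D4:**
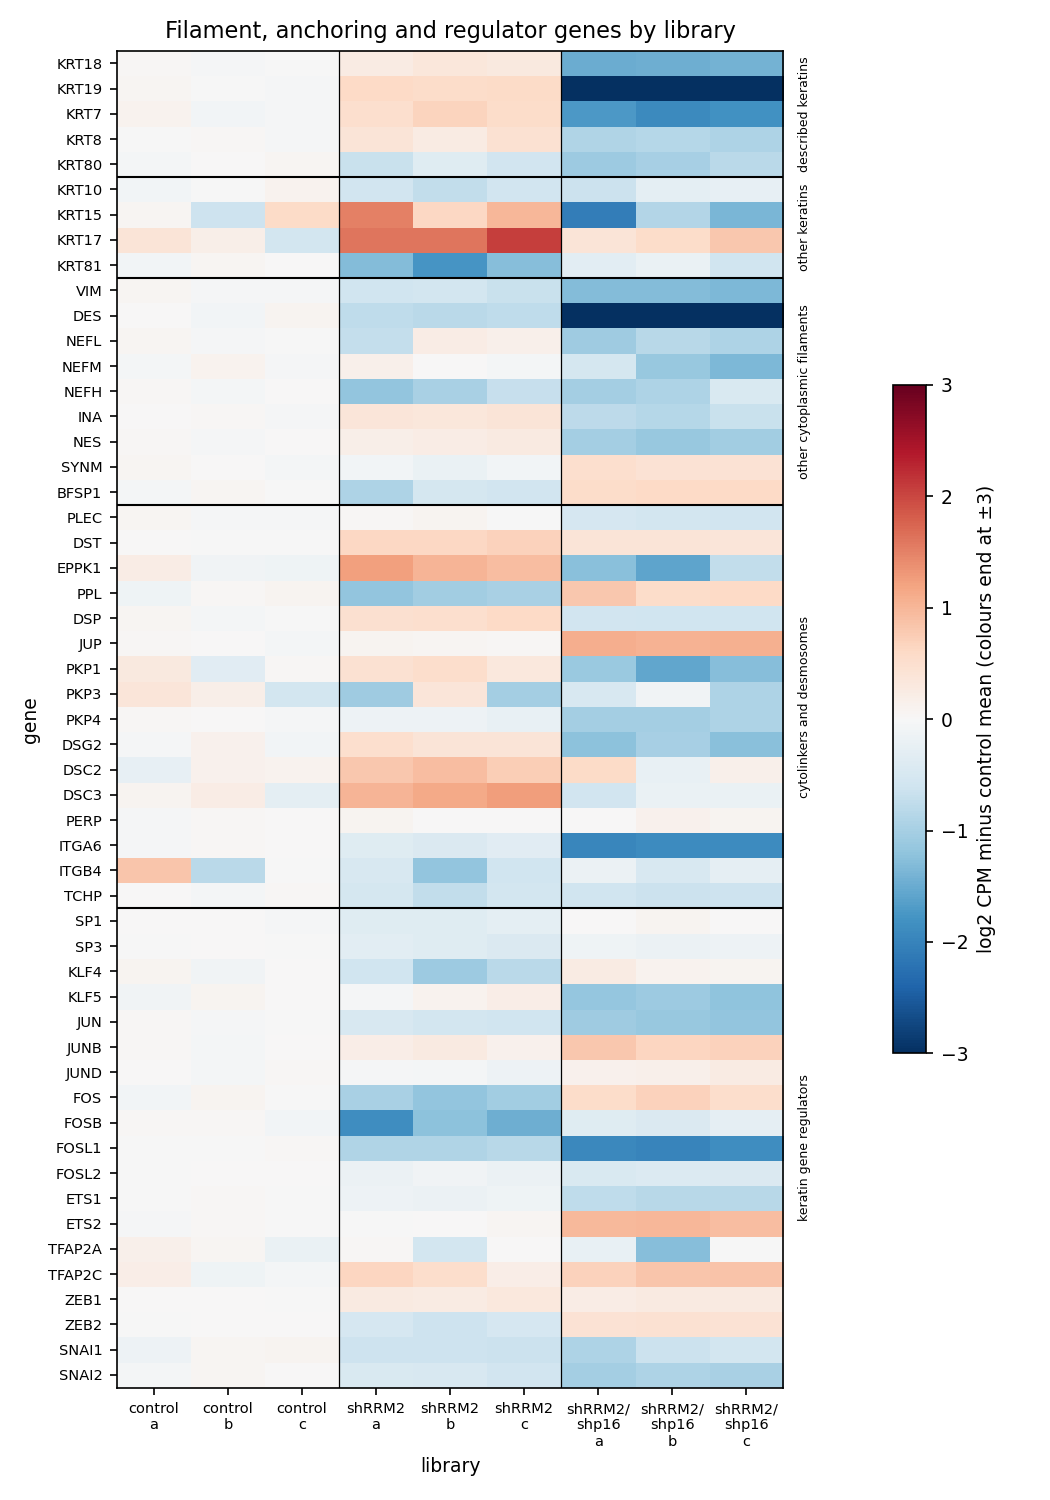
Log2 CPM minus the control mean (colour, ending at ±3) of 5 keratin genes and of the tested genes of 4 lists, in rows, for each of 9 libraries, in columns. DSP, EPPK1, DSG2, INA and NES share with KRT7, KRT8, KRT18 and KRT19 the order shRRM2, control, shRRM2/shp16, while PPL and KRT81 are lowest in shRRM2.

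The libraries were checked for cells that make keratin. Fibroblast markers summed to 24150 to 24744 CPM in control, 25109 to 25842 in shRRM2 and 22439 to 22959 in shRRM2/shp16, and without COL1A1, the most abundant, to 11555 to 11855, 11842 to 12161 and 13182 to 13496. Epithelial markers (25 genes) summed to 37.0 to 39.1, 29.9 to 30.6 and 23.4 to 26.1 CPM. Of those, EPCAM had 14 to 30 counts per library, CDH1 4 to 14, ESRP1 0 to 7 and GRHL2 0 to 4. EPCAM did not pass the test in any comparison, with log2 fold changes of 0.11, -0.26 and -0.15 (adjusted p 0.77, 0.50 and 0.70, edgeR), and the first and last of these changed sign when single libraries were left out.

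Of the 25 epithelial markers 9 were tested, and 4 rose and 2 fell in shRRM2, 2 rose and 2 fell from there to shRRM2/shp16, and 3 rose and 2 fell between control and shRRM2/shp16. Over all genes, 60.9%, 61.1% and 62.4% were called in these comparisons. CLDN4, a tight junction protein, was the most abundant at 22.9 CPM in control and on the log2 scale fell by 1.10 ± 0.08 and then fell by 2.17 ± 0.13. Without CLDN4 the epithelial sum went the other way, at 13.8 to 15.9 CPM in control, 19.4 to 20.2 in shRRM2 and 21.3 to 23.1 in shRRM2/shp16. ELF3, an epithelial ETS factor, rose by 2.80 ± 0.29 from shRRM2 to shRRM2/shp16, from 0.412 to 2.94 CPM. The epithelial list was thus not uniform in direction, and its part in the keratin values was not tested.

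Mesothelial cells also make KRT7, KRT8, KRT18 and KRT19. The 9 mesothelial markers summed to 19.5 to 23.1, 18.0 to 18.4 and 17.1 to 17.9 CPM in the 3 groups. BNC1, a zinc finger factor, made up most of that sum at 15.7, 10.2 and 11.9 CPM, and without it the sum was 4.98 to 6.24 CPM in control, 6.94 to 8.57 in shRRM2 and 5.33 to 6.02 in shRRM2/shp16, highest in shRRM2. Of 5 tested, 2 rose and 1 fell in shRRM2, 1 rose and 2 fell from shRRM2 to shRRM2/shp16, and 1 rose and 3 fell between control and shRRM2/shp16. Beside these, 60.9%, 61.1% and 62.4% of all genes were called. LRRN4 rose by 1.35 ± 0.38 and then fell by 2.93 ± 0.49 on the log2 scale (adjusted p 0.0021 and 1.4e-06, edgeR), from 5 to 11 counts in control, and limma on the RPKM values with every column did not call the rise. UPK1B (an uroplakin) rose by 0.54 ± 0.18 in shRRM2 (adjusted p 0.0097, edgeR), a call lost without shRRM2 replicate a (0.42). MSLN had 0 to 4 counts and WT1 0 to 2, UPK3B had 6 to 20 and CALB2 20 to 61. CALB2 (calretinin) fell by 1.01 ± 0.21 from shRRM2 to shRRM2/shp16 (adjusted p 6.0e-05, edgeR). Smooth muscle markers summed to 2285 to 2411, 1963 to 2053 and 786 to 819 CPM. Of these markers, 6 of 7 tested fell from shRRM2 to shRRM2/shp16, where 29.1% of all genes were called lower. Endothelial markers summed to 66.8 to 72.6, 69.5 to 73.8 and 116 to 125 CPM, nearly all from TEK, with PECAM1 at 5 to 19 counts and CDH5 at 0 or 1. The part of these lists in the keratin values was not tested.

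Genes beside the keratin genes were looked at next. Within 250 kb of the 6 genes, 19 other genes were tested, and 8 were called higher and 3 lower in shRRM2 than in control, 6 and 7 in shRRM2/shp16 than in shRRM2, and 7 and 5 in shRRM2/shp16 than in control. Of all genes tested, 29.0% were called higher and 31.8% lower in the first comparison, 31.9% and 29.1% in the second and 30.0% and 32.4% in the third. The median log2 fold changes of the 19 were 0.15, 0.04 and 0.03. EIF4B, the nearest tested gene to KRT8 and KRT18 at 56.204 kb from the KRT8 start, was called in neither of the first 2 comparisons, with log2 fold changes of 0.06 ± 0.03 and 0.03 ± 0.03 (adjusted p 0.078 and 0.40, edgeR). It was called in the first of them at 0.07 with RLE size factors or DESeq2. With at least 10 counts in every sample, or with limma without the mismatching column, it was called there at 0.09. In the second, limma called it at 0.007 as deposited, 0.13 with a pseudocount of 0.1 and 0.10 without that column. Between control and shRRM2/shp16 it rose by 0.08 ± 0.03 (adjusted p 0.008, edgeR), a call lost without the low-count filter (0.06) or control replicate c (0.07). EIF1, in the type I cluster 160.577 kb from KRT19, fell by 0.47 ± 0.03 in shRRM2 and rose by 0.29 ± 0.03 from there to shRRM2/shp16. The order of KRT7, KRT8, KRT18 and KRT19, higher in shRRM2 and then lower, was called in both steps for 4 of the 19, KRT15, KRT17, TENC1 and IGFBP6. The share of all genes called so in both steps was not computed, so nothing is read from this count. TENC1 (a tensin) rose by 0.21 ± 0.05 and then fell by 0.48 ± 0.05, and IGFBP6 (a binding protein of insulin-like growth factors) rose by 0.18 ± 0.04 and then fell by 0.46 ± 0.04 on the log2 scale (edgeR adjusted p 0.0007 and 2e-10, then 0.00013 and 8.9e-14).

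The genes with patterns most like each keratin gene were ranked by the root-mean-square difference of log2 CPM over the 9 libraries, each gene centred on its own mean, among 12591 tested genes whose mean log2 CPM was 1 or more. KRT18 was nearest to WNT5B (0.053), DUSP5 (0.055) and SGK223 (0.059), and KRT8 to CORO2A (0.066), SNHG23 (0.068) and TLDC1 (0.073). KRT7 was nearest to PODXL (0.086), ATP8B1 (0.098) and AMIGO2 (0.112), and KRT80 to CXXC5 (0.071), SSPN (0.079) and FARSB (0.082).

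By this measure KRT19 had no comparably close gene. The measure is not scaled to the span of a gene, so a wide span such as that of KRT19 goes with larger differences. The nearest were SEMA7A at 0.213, ADAMTSL1 at 0.401 and PSG4, one of a family with near-identical sequences and so uncertain, at 0.484. SEMA7A, a membrane-anchored semaphorin, was at 146, 160 and 10.4 CPM in the 3 groups. Between the keratin genes themselves the difference was 0.256 for KRT18 and KRT8, 0.274 for KRT18 and KRT7 and 0.501 for KRT7 and KRT8, and 153 genes were nearer to KRT18 than KRT8 was. KRT19 lay 0.901 from KRT7 and 1.15 from KRT18, a distance that goes with its larger span, while its order of groups was theirs. By rank, 35 genes were nearer to KRT19 than KRT7 was, and 11799 were nearer to KRT18 than KRT19 was. These likenesses are a description over 9 libraries in 3 groups.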

How the data were processed

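RNA was sequenced from 3 libraries in each of 3 groups, after ribosomal RNA depletion with a stranded kit, per the labels' protocols. The members and gene lists were chosen with earlier results of these data known. The deposited count files hold raw read counts per Ensembl gene. TopHat2 2.0.9, Cufflinks 2.0.2, Cuffdiff and GRCh38 are named in the submitters' processing notes. The counting tool, annotation and strand setting are not given in the sources used here. The deposited table holds log2 RPKM values per library (log2 of RPKM divided by 1000, plus 1, by recalculation from the counts), and the authors' own FPKM values, fold changes, p-values, q-values and test score for the comparison of shRRM2/shp16 and shRRM2, as the file headers say.

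Counts were fitted with edgeR 4.0.16 (R 4.3.3; filterByExpr, TMM, quasi-likelihood test) on all 9 libraries, 1 coefficient for each group, leaving 6 residual degrees of freedom. The 16561 genes tested held 99.8% of counts. Benjamini-Hochberg adjustment covered all genes tested, with a threshold of 0.05. On simulated data with 200 changed genes, of 16151, 164 were recovered with 4 false calls. The simulation gave all genes the same dispersion and changed few genes, where 60.9% were called in the real comparison. It therefore does not give the error rate of the real calls. Reads in no gene were 17.6% to 28.8% and ambiguous reads 3.74% to 6.02% of uniquely aligned reads, and both stayed out of the library sizes. Gene lengths were recovered from the deposited counts and RPKM values. Replicates differed beyond counting noise (chi-square per degree of freedom 1.44 to 2.95), so none was merged. The genes named are the 6 keratin genes, their overlapping genes, pseudogenes and 3 nearest patterns each, up to 3 genes per direction, list and comparison with the largest fold changes, and defining markers. DSP, EIF4B, EIF1, TENC1, IGFBP6, KRT1, KRT5 and KRT14 were added after their values were seen. Alternatives were DESeq2 1.42.0, limma 3.58.1 on RPKM, other filters and normalisation, a replicate block and leaving out each library.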

Additional observations from a re-analysis of the deposited data

How the results depend on the processing

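Under 18 alternatives no direction reversed for 15 fold changes of the keratin genes. Of 133 fold changes of other named genes, the uncalled ones of EPCAM changed sign: in shRRM2 against control, leaving out each library gave -0.27 to 0.42, limma as deposited -3.5e-05 and limma with a pseudocount of 0.1 -0.0032, and in shRRM2/shp16 against control, leaving out each library gave -0.52 to 0.17, with 0.10 without shRRM2/shp16 replicate b. The counts rest on 3 libraries a group, and KRT17, KRT15, PKP1 and ITGB4 on few reads. Of the alternative values for the other named genes, 73 no longer passed the threshold. In shRRM2 against control KRT7, KRT8, KRT18 and KRT19 lost their call with limma on the RPKM values, which hold the mismatching shRRM2 replicate c column: with the values as deposited, whose scale compresses low genes, KRT7 gave 0.0043, KRT8 0.0012, KRT18 0.0048 and KRT19 0.0064, and with a pseudocount of 0.1 RPKM they gave 0.39, 0.22, 0.11 and 0.26. With that column also left out, an alternative chosen after seeing the data, all 4 were called, at 0.63, 0.36, 0.34 and 0.61. KRT80 in shRRM2/shp16 against shRRM2 lost its call at -0.00046 as deposited and at -0.36 with a pseudocount of 0.1 and that column left out, and the cause was not tested. Leaving out each library kept the calls of KRT7, KRT8, KRT18, KRT19 and KRT80, with KRT19 between -4.40 and -4.20 for shRRM2/shp16 against shRRM2 and KRT80 between -0.51 and -0.35.

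The balance of genes called turned with limma. In shRRM2 against control 4810 were higher and 5269 lower, against 4254 and 4010 with a pseudocount of 0.1 and the column left out. In shRRM2/shp16 against control, 4971 and 5368 became 5079 and 3488 as deposited, 5215 and 3603 with a pseudocount of 0.1 and 5643 and 3921 with the column left out, and the regulators went from 7 and 9 to 9 and 7, 8 and 7, and 8 and 7. Cytolinkers and desmosomes in shRRM2 against control went from 6 and 5 to 7 and 3 with the column left out.

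The count of other keratins called was 4, 4 and 2 in the 3 comparisons. With at least 10 counts in every sample, where fewer genes are tested, it was 2, 2 and 1. In shRRM2/shp16 against shRRM2, limma with a pseudocount of 0.1 called 2, with or without the mismatching column. In shRRM2/shp16 against control, limma called 0 as deposited, 0 with a pseudocount of 0.1 and 0 with that column left out. With the union of exons in GENCODE as gene length, KRT8 was at 3.61, 4.68 and 1.92 CPM per kilobase in the 3 groups, type II per type I at 0.284, 0.289 and 0.403, and KRT8 per KRT18 at 0.108, 0.115 and 0.158. Replicate letters did not pair the libraries (correlations of deviations -0.020 to 0.049 for the same letter and -0.048 to 0.036 for others). With a replicate block, 10101, 10134 and 10388 genes were called against 10079, 10116 and 10339 without it, and KRT19 gave 0.57, -4.33 and -3.77.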
